A study of Mus musculus with 39 samples.

Results

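Of 39 mouse lymphomas, 7 in which the genes of chromosome 5 were expressed above their level in the other tumours are described here. All 39 lymphomas came from mice of the genotype Eµ-myc, in which the immunoglobulin heavy chain enhancer drives the oncogene Myc in B lineage cells, and total RNA of each frozen tumour was measured on 1 expression array. The labels name no treatment, control tissue, strain, age or batch, and do not state that the tumours came from separate mice, so a p-value measures only the spread between these samples. The 7 tumours, which the titles number 12, 14, 17, 21, 24, 25 and 32, were chosen by the expression of chromosome 5 itself. They were set against 26 other tumours, selected on a level of 8 or more of Pou2af1, a B cell transcriptional coactivator, and 6 tumours below that level were left out of the comparison. Because chromosome 5 chose the tumours, its genes are given as a description, and nothing is read from their calls. The tests that follow concern genes and chromosomes elsewhere, but they are not all independent of chromosome 5. Its genes were part of the fit over all genes and shared its adjustment for multiple testing. They were also in the rest of the array against which other chromosomes were partly read.

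In a cell that carries an extra copy of a chromosome, most of its genes are transcribed in proportion to the number of copies, so that many small increases of the same direction run along the whole chromosome. Lymphomas of Eµ-myc mice are known to acquire further lesions beside the transgene, among them loss of the Arf and p53 tumour suppressors and gains or losses of chromosomes. Mouse chromosome 5 carries genes for replication factors, ribosome assembly, the CXC chemokines and several receptor tyrosine kinases. DNA copy number was not measured here, so every value below is a level of RNA. In tumour tissue fewer cells of a type and less RNA per cell cannot be told apart.

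All 7 raised tumours were rich in B cell transcripts. Pou2af1 stood at 12.66 in tumour 12, 12.60 in tumour 14, 12.96 in tumour 17, 12.91 in tumour 21, 12.89 in tumour 24, 12.68 in tumour 25 and 10.59 in tumour 32 on the log2 scale of the array. In the comparison tumours it ran from 11.99 over a median of 12.74 to 12.98, so tumour 32 lay below all of them. The mean level of 9 pan B cell markers, among them the B cell receptor components Cd79a and Cd79b, ran from 9.26 in tumour 32 to 10.83 in tumour 24, against 9.97 to 11.17 in the comparison tumours. Tumour 32 was also the raised tumour with the most transcripts of plasmacytoid dendritic cells, T cells and cytotoxic cells, and tumour 25 alone among the raised tumours carried salivary gland transcripts. The part of these other cells in the results was not tested, and the counts without both tumours are given beside the tests.

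The strength of the chromosome 5 signal depended on which genes were read. Of 18033 genes on the array, 1122 lie on chromosome 5, and 434 of those were well expressed, meaning a mean level of at least 8. Over all 1122 genes, each centred on its median over the 33 tumours, the chromosome median was 0.24 in tumour 21, 0.12 in tumour 14, 0.071 in tumour 17, 0.067 in tumour 32, 0.060 in tumour 25, 0.059 in tumour 24 and 0.033 in tumour 12. By that measure only tumour 21 reached the 0.15 that the selection names, and comparison tumour 3 at 0.055 lay among the raised ones. Over the 434 well expressed genes, minus the same array's median over well expressed genes on all other chromosomes, the 7 tumours all reached it. This second measure, called the relative level below, was chosen after the data had been seen.

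On that relative scale tumour 21 stood far above the others at 0.64, a ratio of 1.56 to the rest of its array. Tumour 14 stood at 0.32, tumour 32 at 0.29, tumour 24 at 0.20, tumour 25 at 0.17, tumour 12 at 0.17 and tumour 17 at 0.16. A gain of 1 copy on a pair would give 0.58 if RNA followed copies exactly. The comparison tumours ran from -0.16 over a median of -0.039 to 0.091, and did not overlap with the raised ones, as the selection requires. Just inside the limit were tumours 17 and 12, and just outside were comparison tumours 10 at 0.091 and 3 at 0.037. Comparison tumours 2 and 1, at -0.16 and -0.15, were the lowest.

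**Figure D1:**
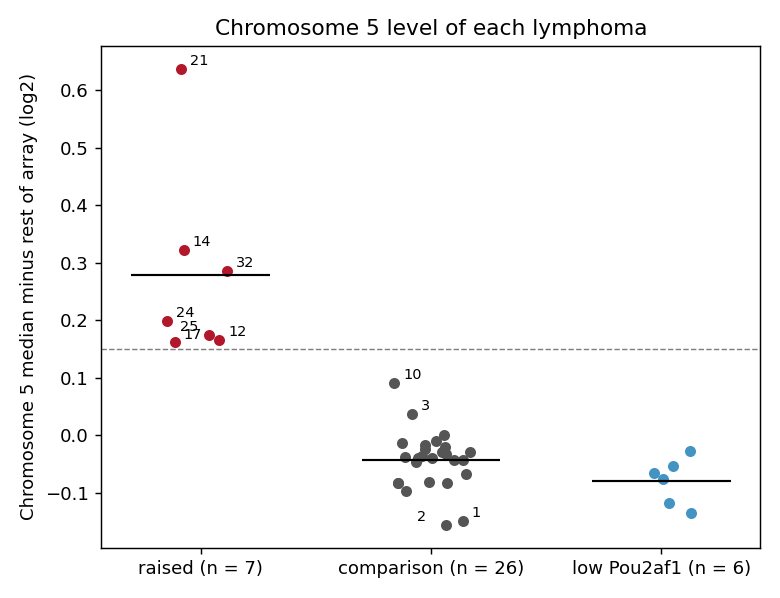
Relative level of chromosome 5 in each of the 39 lymphomas (vertical axis, log2: median of its well expressed genes minus the rest of the array), grouped as 7 raised, 26 comparison and 6 left-out tumours, with horizontal bars at the group means and a dashed line at 0.15. The raised tumours lie between 0.16 and 0.64, and tumour 10, the highest comparison tumour, lies at 0.091.

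Most well expressed genes took part in the shift. A choice of tumours by the chromosome median largely requires this, so the shares in this and the next paragraph are a description. Of the 434 well expressed chromosome 5 genes, 411 (94.7%) had a higher mean in the raised tumours than in the comparison tumours, with a median difference of 0.33 log2 and quartiles of 0.21 and 0.44. Of 5995 well expressed genes elsewhere 46.2% had a positive difference, and their median was -0.019. In 150 of the chromosome 5 genes (34.6%) every raised tumour lay above the comparison median, as did 1.82% of the well expressed genes elsewhere. In the fit over all genes 69 of the 1122 chromosome 5 genes were called higher and 0 lower at an adjusted p under 0.05, 63 of them well expressed, while 0.427% of all genes tested were called higher and 0.116% lower. Nothing is read from that count, since the same genes chose the tumours.

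Within single tumours the share was high as well, which the same choice requires in part. The share of well expressed chromosome 5 genes above their median over the 33 tumours was 90.3% in tumour 21, 89.4% in tumour 14, 77.4% in tumour 24, 74.7% in tumour 17, 74.2% in tumour 25, 70.7% in tumour 32 and 69.1% in tumour 12. In the comparison tumours it ran from 17.3% over a median of 39.7% to 71.0%, so that tumour 10 overlapped the lowest raised tumours. In tumour 21 the quartiles of these genes lay 0.32 and 0.84 above their medians.

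The size of the difference followed the level of expression. When all genes were ordered by mean level and cut into 4 equal classes, the median difference of the chromosome 5 genes was -0.011 in the lowest class, 0.014 in the next, 0.27 in the one after and 0.33 in the highest. In tumour 21 alone the same classes had medians of 0.034, 0.079, 0.54 and 0.65. Genes elsewhere had medians between -0.035 and -0.0096 in these classes. Whether the small differences of dim genes come from the array or the cells was not tested.

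The raised level ran along the whole chromosome. The 434 well expressed genes were taken in gene order in 10 successive stretches of 43 or 44 genes, from Cdk6 to Hadha at the start to Ap5z1 to Rfc3 at the end. All 10 stretches were above 0 in each of the 7 raised tumours. Tumour 21 ran from 0.54 to 0.78 over the stretches, tumour 14 from 0.21 to 0.40, tumour 32 from 0.14 to 0.39 and tumour 24 from 0.12 to 0.35. Tumour 17 ran from 0.097 to 0.27, tumour 25 from 0.12 to 0.21 and tumour 12 from 0.092 to 0.20.

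In 7 of the 10 stretches every raised tumour lay above every comparison tumour. The exceptions were the stretch from Commd8 to Scarb2, where comparison tumour 2 reached 0.24, and those from Septin11 to Gtpbp6 and from Kntc1 to Mdh2, where comparison tumour 10 reached 0.12 and 0.23. Tumour 10 was above 0 in all 10 stretches as well, from 0.0049 to 0.23. Tumour 2 by contrast ran from -0.49 to 0.24 and was above 0 in only 2 stretches.

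**Figure D2:**
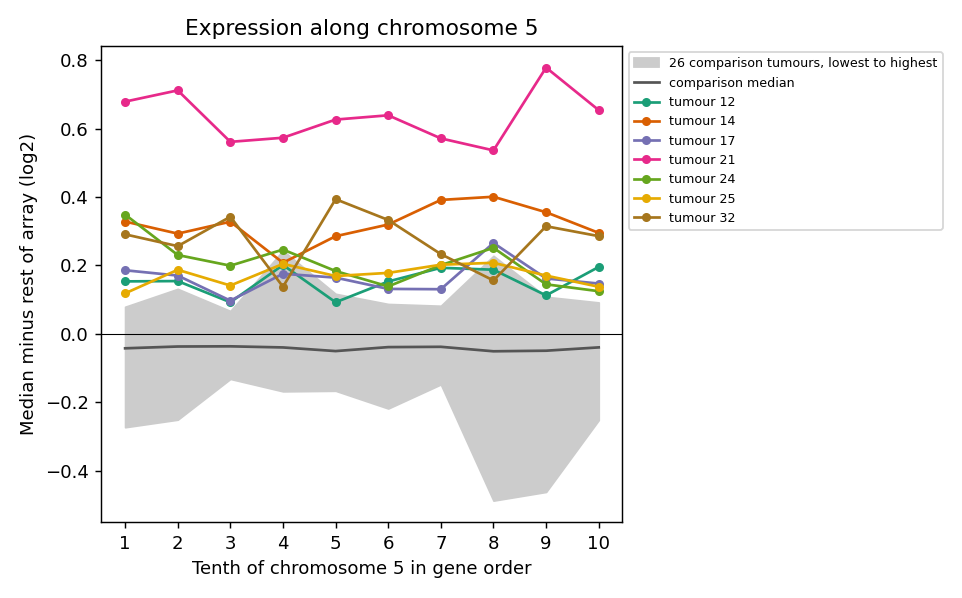
Level along chromosome 5, as the median of well expressed genes minus the rest of the array (vertical axis, log2) in 10 successive stretches in gene order (horizontal axis), with 1 line for each of the 7 raised tumours, a grey band from the lowest to the highest of the 26 comparison tumours and a grey line at their median. Tumour 21 runs between 0.54 and 0.78, and every raised tumour stays above 0 in all 10 stretches.

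The genes with the steadiest differences among the well expressed ones, ordered by difference over standard error and picked after their values were seen, were in order Lap3, Ociad1, Sbno1, Cnpy4, Sbds, Arpc1a, Pomp, Cops4, Nudt9, Anapc4, Diablo and Preb. In all 12 of them the 7 raised tumours lay above the comparison median, although probe sets of Ociad1 were unrelated (lowest r = 0.049). Lap3, a leucine aminopeptidase, stood at 10.89, 10.97, 10.93, 11.32, 11.36, 10.96 and 11.06 in tumours 12, 14, 17, 21, 24, 25 and 32. Its comparison values ran from 10.16 over a median of 10.46 to 10.89, and 6 of the 7 raised tumours exceeded all of them, a difference of 0.60 ± 0.088 (standard error). Pomp, which assembles the proteasome, stood at 12.21, 12.30, 12.10, 12.56, 12.19, 12.11 and 12.28, with a comparison range of 11.31 to 12.13 and a difference of 0.38 ± 0.070. In both genes tumour 21 was among the highest and the overlap involved 1 comparison tumour.

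Sbds, a factor of ribosome maturation, differed by 0.62, with tumour 17 highest at 10.86 and tumour 32 lowest at 10.08 against a comparison median of 10.02. Cops4, a subunit of the COP9 signalosome, differed by 0.63, and 6 of the 7 raised tumours exceeded the comparison maximum of 9.70. Arpc1a, a subunit of the actin nucleating Arp2/3 complex, differed by 0.47, with 6 of 7 above the comparison maximum of 10.17. Diablo, which relieves the inhibition of caspases, differed by 0.58, with 4 of 7 above the comparison maximum. Only 1 of the 1122 chromosome 5 genes, and none of 16910 elsewhere (0), had all 7 raised tumours above all 26 comparison tumours.

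Genes of ribosome assembly, RNA handling and nucleotide synthesis had a higher mean in the raised tumours in all 21 cases, with a median difference of 0.36. Comparison tumour 2 was lowest in this list, at 10.18 against a comparison median of 11.24. Ddx51, a helicase of ribosome assembly, differed by 0.72 ± 0.15 and had the largest difference of this list. It stood at 9.57, 9.42, 9.59, 9.53, 9.25, 9.50 and 10.54 in tumours 12, 14, 17, 21, 24, 25 and 32, against a comparison range of 8.02 to 9.46. Nop14, a factor of small subunit assembly, differed by 0.63, Pus1, a pseudouridine synthase, by 0.47, and Eif3b, an initiation factor subunit, by 0.43.

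Ppat and Paics, which act in purine synthesis, differed by 0.45 and 0.27. Srp72, a protein of the signal recognition particle, differed by 0.41, with 11.95, 12.09, 11.77, 12.29, 11.56, 11.72 and 12.09 against a comparison range of 11.22 to 11.83. The abundant ribosomal protein genes of the list differed less, Rpl6 by 0.12 and Rplp0 by 0.086. For Rplp0 the raised tumours nevertheless lay between 14.47 and 14.55, above the comparison median of 14.44 in all 7. Hnrnpdl, an RNA binding protein, differed by 0.16, and Eif4h, a helper of the initiation helicase, by 0.19, with probe sets of Eif4h that disagreed (r = -0.52 between them).

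Genes of the cell cycle, replication and repair had a higher mean in the raised tumours in all 24 cases, with a median difference of 0.28. The raised tumours above the comparison median were 2 of 7 for Kntc1, 3 for Brca2, 4 for Mcm7 and 7 for Cdk8. Comparison tumour 2 was lowest in this list, at 8.74 against a comparison median of 10.115. It was also lowest in G2/M genes outside chromosome 5, at 8.29 against 11.12. Its part in the differences was not tested. Cdk6, the kinase that starts passage through G1 with D-type cyclins, stood at 10.21 in tumour 12, 10.35 in tumour 14, 10.78 in tumour 17, 12.13 in tumour 21, 10.58 in tumour 24, 10.60 in tumour 25 and 9.89 in tumour 32. The comparison tumours ran from 5.79 over a median of 10.00 to 10.58, so that 4 raised tumours exceeded all of them and tumour 32 lay below their median. The difference in means, 0.96 ± 0.38, was thus carried largely by tumour 21 and by low values among the comparison tumours.

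Cdk8, the kinase of the Mediator complex, differed more evenly, by 0.61 ± 0.15, with 11.45, 11.53, 11.66, 11.74, 11.70, 11.54 and 11.01 against a comparison range of 9.84 to 11.64. Pole, the catalytic subunit of DNA polymerase epsilon, differed by 0.58 and Orc5, of the origin recognition complex, by 0.44. Dbf4, the activating partner of the kinase Cdc7, differed by 0.37, and the clamp loader subunits Rfc5, Rfc2 and Rfc3 by 0.31, 0.24 and 0.13. The anaphase promoting complex subunits Anapc7 and Anapc5 differed by 0.47 and 0.37.

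Of the other abundant genes of that list, Ccni, a cyclin, differed by 0.28, Mcm7, a subunit of the replicative helicase, by 0.14 and Ran, the GTPase of nuclear transport, by 0.13. For Mcm7 the raised tumours ran from 12.72 to 13.75 and overlapped the comparison range of 11.16 to 13.35 almost entirely. Brca2, a tumour suppressor of DNA repair, differed by 0.28, and Chek2, a checkpoint kinase, by 0.25.

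Of the transcription and chromatin genes 22 of 24 had a positive difference, with a median of 0.30. Kmt5a, a histone lysine methyltransferase, stood at 11.61, 11.68, 11.92, 11.96, 11.77, 11.65 and 11.40 against a comparison median of 11.32, and differed by 0.48 ± 0.15. Polr2b and Polr2j, subunits of RNA polymerase II, differed by 0.41 and 0.36, and in both all 7 raised tumours lay above the comparison median. Bcl7b differed by 0.40, Taf6, a subunit of the basal factor TFIID, by 0.39, and Gtf2i, a general transcription factor, by 0.32. Ctbp1, a corepressor, differed by 0.23.

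Gfi1, a transcriptional repressor of blood cells, varied far more than its neighbours. It stood at 10.22 in tumour 14, 9.74 in tumour 17, 10.06 in tumour 21, 10.18 in tumour 24 and 10.46 in tumour 25, but tumour 12 had 8.17 and tumour 32 had 5.94, against a comparison median of 9.22. Klf3, a repressor of the Krüppel-like family, and Cux1 were the members with a negative difference, -0.36 and -0.12. In Cux1 tumour 12 was lowest at 7.62, and without that tumour the difference was 0.083.

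Receptors and signalling genes were mixed: 14 of 20 had a positive difference and the median was 0.12. The receptor tyrosine kinases were dim, and Kit, Kdr, Pdgfra and Fgfr3 differed by -0.020, -0.14, 0.045 and -0.095. Flt3, the receptor of early lymphoid and dendritic cells, stood at 10.36 in tumour 32 and between 5.81 and 7.51 in the other raised tumours. Of the 10 well expressed members 9 had positive differences.

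Among those was Rheb, the GTPase that activates the growth kinase mTOR, which stood at 12.45, 12.73, 12.44, 12.54, 12.54, 12.54 and 12.36 in tumours 12, 14, 17, 21, 24, 25 and 32. Its comparison values ran from 11.68 over a median of 12.16 to 12.64, and the difference was 0.35 ± 0.084. Rhoh, a GTPase of blood cells, differed by 0.53 with tumour 21 highest at 11.71, and Gnb2, a G protein subunit, by 0.28. Rac1, which remodels actin, differed by 0.086, with tumour 21 alone above the comparison maximum, and Pxn, a focal adhesion scaffold, by -0.12.

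Metabolic and housekeeping genes had a positive difference in 12 of 13 cases, with a median of 0.25. Mdh2, mitochondrial malate dehydrogenase, stood at 13.15, 13.15, 13.21, 13.49, 13.21, 13.25 and 12.94 against a comparison median of 12.97, a difference of 0.25 ± 0.070. Aldh2, an aldehyde dehydrogenase, differed by 0.40, Atp2a2, the calcium pump of the endoplasmic reticulum, by 0.25 and Cox6a1, a cytochrome oxidase subunit, by 0.13. Actb, the cytoskeletal actin, differed by 0.030 at a level near the top of the scale, and Dynll1, a dynein light chain, by -0.12. Uchl1, a deubiquitinase of neurons, had the largest difference of the list, 1.58, but stood between 3.93 and 4.61 in 3 raised tumours and at 9.11 in tumour 21.

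Of the immune surface, chemokine and interferon genes of the chromosome 11 of 21 had a positive difference, and the median was 0.022. Most of them were dim, and of the 5 well expressed ones 4 were positive, Cxcl13, Plac8, Selplg and P2rx4, while the receptor Tlr1 differed by -0.37. Of all chromosome 5 genes under a mean level of 8, 57.1% had a positive difference. Cxcl13, the chemokine that draws B cells into follicles, ran from 7.82 in tumour 21 to 11.81 in tumour 12, inside the comparison range of 4.94 to 13.83. The interferon induced Oas1a, Oas2 and Oasl2 differed by 0.10, 0.20 and 0.41, with tumour 32 highest of the raised tumours in each, and Cxcl9 and Cxcl10 by -0.65 and -0.21. Plac8 and Selplg, the ligand of P-selectin, were highest in tumour 32, at 13.66 and 12.62. P2rx4, a receptor of extracellular ATP, differed by 0.11.

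**Figure D3:**
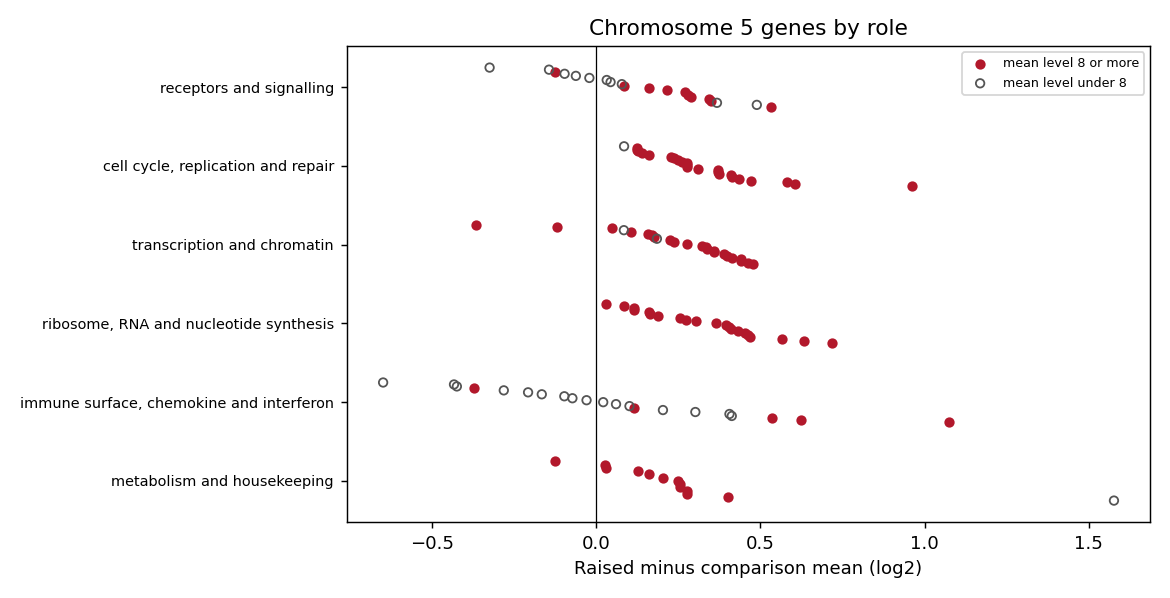
Difference of the raised minus the comparison mean (horizontal axis, log2) for each measured chromosome 5 gene of 6 role lists (vertical axis), with filled points for genes of a mean level of 8 or more and open points for dimmer ones. All 24 cell cycle and all 21 ribosome and RNA genes lie above 0, while the immune genes scatter around 0 with a median of 0.022.

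The largest differences in means on the chromosome mostly came from variable genes. Rundc3b, which led with 1.73 ± 0.51, stood at 9.39 in tumour 21, 8.57 in tumour 32 and 7.29, 7.42 and 7.48 in tumours 12, 24 and 25, but at 4.92 and 4.48 in tumours 14 and 17, below the comparison median of 5.06. Abcb1b, a drug efflux pump, differed by 1.21 and was above the comparison maximum of 8.50 in tumours 12, 21 and 32. Gpat3, of triglyceride synthesis, differed by 1.04, Stap1, an adaptor of B cell signalling, by 0.97 and Crmp1 by 0.94. Each of these ranges overlapped the comparison tumours.

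Fam185a and Zbed5 were the evener members of that group. Fam185a stood at 9.90, 9.64, 9.49, 9.88, 9.26, 9.43 and 8.84 in tumours 12, 14, 17, 21, 24, 25 and 32, against a comparison median of 8.55 and maximum of 9.26, a difference of 0.95 ± 0.23. Zbed5 differed by 0.92 ± 0.21, with tumour 32 alone below the comparison median of 5.41. Mxd4, which competes with Myc for the partner Max, differed by 0.86 with its lowest level, 9.08, in tumour 25 and its highest, 10.84, in tumour 21. Myl10 differed by 0.89 through tumour 32 alone, at 9.63 where the other raised tumours lay between 3.56 and 3.89.

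Some well expressed genes of the chromosome had a lower mean in the raised tumours. Jchain, the joining chain of secreted antibodies, had its lowest level of 5.87 in tumour 14 and stayed under the comparison median of 9.78 in 5 of the 7, while tumour 12 had 10.60 and tumour 32 had 12.88. Rassf6, an adaptor of the Ras association family, had levels of 4.05, 4.65 and 6.23 in tumours 21, 32 and 12, and lay between 9.53 and 11.09 in the other 4 raised tumours. Fscn1, which bundles actin, differed by -0.82. Wsb2 was below its comparison median of 8.07 in all 7 raised tumours, with a difference of -0.42 ± 0.23.

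The genes farthest above the comparison median differed from tumour to tumour. In tumour 21 they were Wdfy3, Cdk6 and Rhoh, 2.45, 2.14 and 1.97 above that median, and in tumour 14 Helq, a DNA helicase, Uvssa, of transcription-coupled repair, and Abhd11, by 1.51, 1.49 and 1.43. In tumour 17 Reln led by 1.90 and Fam185a followed by 0.94. In tumours 24 and 25 the leading genes included Cxcl13, by 1.74 and 1.24, with Dtx1, a regulator of Notch signalling, by 1.56 in tumour 24 and Gfi1 by 1.24 in tumour 25. In tumour 12 and tumour 32 Ncf1, a subunit of the phagocyte oxidase, led by 3.06 and 4.96, and Alox5ap, of leukotriene synthesis, followed in tumour 32 by 3.79.

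The raised tumours also carried shifts of other chromosomes. The number of other chromosomes, of 19, with a relative level at least 0.15 up or down was 12 in tumour 12, 4 in tumour 14, 1 in tumour 17, 6 in tumour 21, 3 in tumour 24, 6 in tumour 25 and 2 in tumour 32. In the comparison tumours it ran from 0 over a median of 1 to 6, and 14 of the 26 had any. The means were 4.86 ± 3.67 (SD, n = 7) and 1.35 ± 1.74 (SD, n = 26), a difference of 3.51 that passed an exact 2-sided permutation test over tumours (p = 0.0022), and 6 of the 7 raised tumours lay above the comparison median. Without tumour 12 the difference was 2.32 (exact permutation p = 0.011). This count was thought of after the data were seen, and a relative level falls by construction where other chromosomes of the same array rise, chromosome 5 included.

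Which chromosomes were shifted differed between the raised tumours. Tumour 12 was highest on chromosomes 4, 1, 3, X and 14, at 0.34, 0.28, 0.27, 0.24 and 0.21, and lowest on chromosomes 12, 2 and 7, at -0.42, -0.37 and -0.35. Tumour 21 was raised on chromosomes 10, 18, 11 and 15, at 0.42, 0.34, 0.33 and 0.24, and stood at -0.24 on chromosome 3. Tumour 14 was raised on chromosomes 10, 3, 15 and 14, at 0.31, 0.29, 0.27 and 0.22. Tumour 32 was raised on chromosomes 15 and 3, at 0.27 and 0.23.

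Tumours 17, 24 and 25 shared a low chromosome 13. Its relative level was -0.65 in tumour 17, -0.57 in tumour 24, -0.43 in tumour 25 and -0.24 in tumour 12, but -0.011 in tumour 21, -0.0021 in tumour 14 and 0.019 in tumour 32. Tumour 17 had no other chromosome beyond the limit. Tumour 25 was also at -0.55 on chromosome 19 and at 0.42 on chromosome 14, and tumour 24 at 0.28 on chromosome 3. In the comparison group chromosome 13 ran from -0.58 over a median of 0.064 to 0.20, and the low tumours there were 3 at -0.58, 10 at -0.40 and 15 at -0.28. Tumours 10 and 3 were also the comparison tumours with the highest chromosome 5 level.

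**Figure D4:**
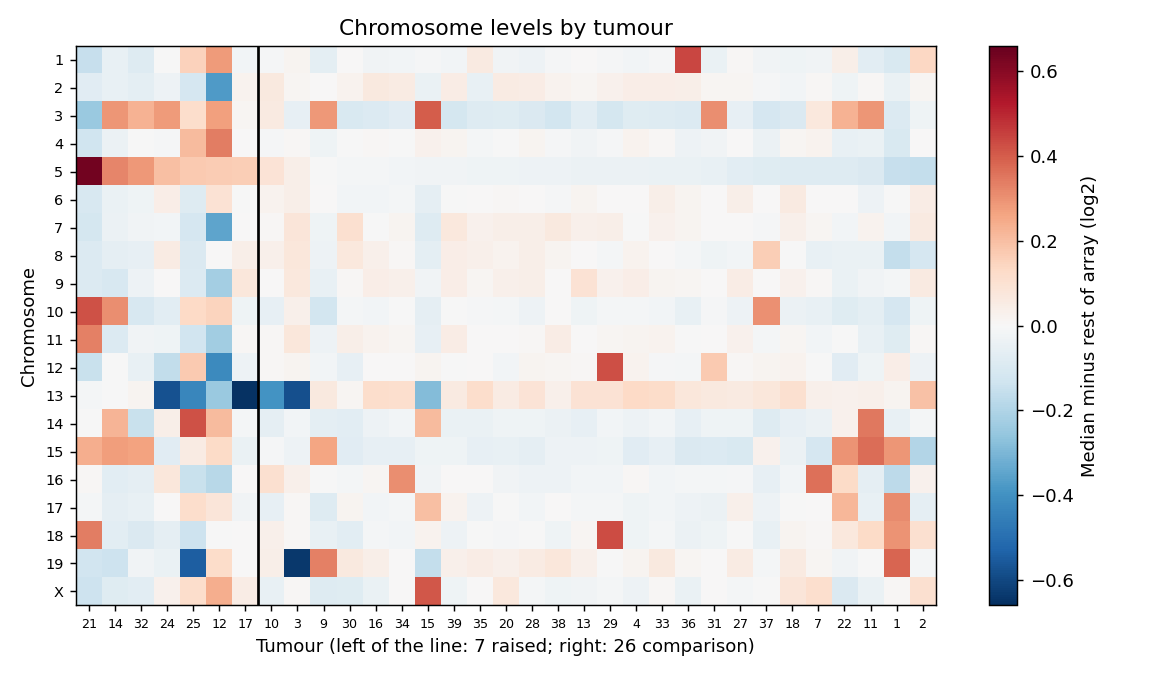
Relative level (colour, log2) of each chromosome (vertical axis) in the 7 raised tumours, left of the black line, and the 26 comparison tumours, right of it, each ordered by its chromosome 5 level (horizontal axis, tumour numbers). The chromosome 5 row is red in all 7 raised tumours, and the chromosome 13 row is blue in tumours 24, 25, 12 and 17 and in comparison tumours 10, 3 and 15.

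Whether any other chromosome differed between the groups depended on how it was read. With the median over all genes of a chromosome, 0 of 19 chromosomes passed the exact 2-sided permutation test over tumours after Benjamini-Hochberg adjustment over the 19, and chromosomes 2, 9 and 13 had an unadjusted p under 0.05. Chromosome 13 came closest, with a difference of -0.11 (exact permutation p = 0.0032, adjusted 0.061) and all 7 raised tumours below the comparison median. Over the alternatives tried its adjusted p ran from 0.016 to 0.97, and it passed against all other tumours, the 6 left out included (0.024), without tumour 14 (0.029), 21 (0.031) or 32 (0.027), without comparison tumour 10 (0.021) or 2 (0.032), and with the mean in place of the median (0.024).

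On the relative scale of well expressed genes 5 of 19 chromosomes passed the same exact permutation test. The rest of the array subtracted there includes chromosome 5, which chose the tumours, so the relative levels of other chromosomes are not independent of it. Over the same genes without the subtraction 0 of 19 passed. Chromosomes 13, 2, 7, 9 and 10 then differed by -0.28, -0.099, -0.10, -0.074 and 0.14. Their SDs over the comparison tumours were 0.17, 0.10, 0.098, 0.093 and 0.12 without the subtraction. On the relative scale these SDs were 0.17, 0.033, 0.039, 0.034 and 0.075. What made the outcomes differ was not tested. The relative values follow. Chromosome 13 differed by -0.29 (adjusted p = 0.016), chromosome 2 by -0.11 (0.0014), chromosome 7 by -0.11 (0.0017), chromosome 9 by -0.087 (0.0047) and chromosome 10 by 0.13 (0.036). All 7 raised tumours lay below the comparison median for chromosomes 13 and 7, and 6 of 7 for chromosomes 2 and 9, while for chromosome 10 only 4 of 7 lay above it. Without tumour 12 chromosomes 2, 7, 9 and 13 passed with chromosome 6, and chromosome 10 did not. The differences of chromosomes 2 and 7 then were -0.067 and -0.067.

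Few single genes elsewhere passed the test, and its adjustment took in the 1122 chromosome 5 genes that chose the tumours. The 69 calls among those ease the threshold for genes elsewhere. An adjustment over genes elsewhere alone was not run, so how many of them would pass it is not known. In limma over all genes, with Benjamini-Hochberg adjustment, 8 of 16910 genes outside chromosome 5 rose (0.0473%) and 21 fell (0.124%), and 1428 had an unadjusted p under 0.05. Without tumour 12 the counts were 1 (0.00591%) and 6 (0.0355%), of which 5 were among the 29. Without tumour 21 they were 0 and 1, without tumour 24 they were 0 and 4, without tumour 14 they were 2 and 18, and without tumour 17 they were 6 and 5. Without tumour 25 they were 18 and 13, without tumour 32 they were 23 and 30, and without both 25 and 32 they were 28 and 21, with 16 of these 49 among the 29. With each array re-centred on its median over genes elsewhere, 0 genes elsewhere passed (1060 at an unadjusted p under 0.05). The genes called thus changed with the tumour left out and with re-centring. Chromosome 5 calls in the same adjustment changed too, from 69 to 1 with re-centred arrays. They were 33, 22, 37, 2, 28, 60 and 78 without tumours 12, 14, 17, 21, 24, 25 and 32. Over these 7 fits 1092 to 1625 genes elsewhere had an unadjusted p under 0.05, with 1546 when tumour 21 was left out. The part of each in the counts was not tested.

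Chromosome 13 held 8 of the 21 genes that fell, which is 1.14% of its 702 genes. Grk6, a kinase that desensitises chemokine receptors, had the smallest p: it stood at 10.99 in tumour 12, 11.69 in tumour 14, 10.87 in tumour 17, 10.93 in tumour 21, 10.87 in tumour 24, 10.71 in tumour 25 and 11.15 in tumour 32. The comparison tumours ran from 11.17 over a median of 11.52 to 11.85. Of the raised tumours 6 lay below all comparison tumours and tumour 14 lay among them, and the difference was -0.49 ± 0.093 (adjusted p = 0.014, range over alternatives 0.00061 to 0.23, called in 16 of 20).

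Sdha, the flavoprotein of succinate dehydrogenase, stood at 10.41, 10.72, 10.45, 11.25, 10.47, 10.67 and 10.92 in tumours 12, 14, 17, 21, 24, 25 and 32, against a comparison range of 10.58 to 11.57. All 7 lay below the comparison median of 11.26, and the gene fell by 0.53 (adjusted p = 0.031, called in 14 of 20 alternatives), although its probe sets disagreed (r = -0.091). Prelid1, which moves phosphatidic acid in mitochondria, fell by 0.47, from a comparison median of 12.03 to between 11.05 in tumour 24 and 11.84 in tumour 32 (adjusted p = 0.041). Lpcat1, of phospholipid remodelling, fell by 0.52 (adjusted p = 0.048), with probe sets that followed each other weakly (r = 0.18).

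Polk, a polymerase that copies past damaged bases, fell by 0.55 (adjusted p = 0.048) and Cdkal1, a tRNA modifying enzyme, by 0.48 (adjusted p = 0.046), both below the comparison median in 7 of 7. Nsd1, a histone lysine methyltransferase, fell by 0.45 (adjusted p = 0.046), below it in 6 of 7, but its probe sets were unrelated (r = 0.011). The remaining chromosome 13 gene was the unnamed transcript 2210016F16Rik, at -1.08 (adjusted p = 0.032). With the chromosome 13 median as a covariate, an alternative added later, 1 gene elsewhere was higher and 1 lower, and neither was among the 29.

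Genes that fell on other chromosomes had smaller shared ground. Wdr90, a protein of centrioles on chromosome 17, stood at 7.43, 6.88, 6.74, 6.45, 6.93, 6.78 and 7.72 against a comparison median of 7.74 and range of 6.76 to 8.42. It fell by 0.77 in 7 of 7 below that median (adjusted p = 0.019, range over alternatives 0.00097 to 0.22, called in 17 of 20). Gpatch1, of pre-mRNA splicing on chromosome 7, fell by 0.44 (adjusted p = 0.019), and no raised tumour exceeded 8.49 where the comparison median was 8.76.

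Dennd11 fell by 0.82, Btbd6, an adaptor of ubiquitin ligases, by 0.78 and Usp11, a deubiquitinase on chromosome X, by 0.66, with adjusted p of 0.046, 0.029 and 0.047. In all of these 7 of 7 raised tumours lay below the comparison median. For Dennd11 tumour 12 was lowest at 7.58. The rule for naming passed over Actg1, Ap2m1, Arhgef1, Clcf1, Itch, Pygb, Ring1 and Zbtb21, which fell by between 0.29 and 0.42 and are listed for completeness after their values were seen.

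Of the genes that rose, Pik3r3, a regulatory subunit of the lipid kinase PI3K, had the largest difference. It stood at 8.17 in tumour 12, 6.69 in tumour 14, 6.29 in tumour 17, 7.39 in tumour 21, 7.30 in tumour 24, 6.61 in tumour 25 and 7.36 in tumour 32. The comparison tumours ran from 4.69 over a median of 5.67 to 7.58, so 7 of them overlapped the raised range, and the gene rose by 1.26 ± 0.30 (adjusted p = 0.047, range over alternatives 0.014 to 0.36, called in 10 of 19). All 7 raised tumours lay above the comparison median.

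Dad1, a subunit of the complex that attaches sugars to new proteins, stood at 11.75, 11.92, 11.45, 11.42, 11.49, 11.92 and 11.87 against a comparison median of 11.31 and rose by 0.36 (adjusted p = 0.046). Ciart, a repressor of the circadian clock, rose by 0.68 (adjusted p = 0.031), with tumour 24 highest at 8.17 and tumours 25 and 32 at 6.38 near the comparison median of 6.31. Lancl1, which binds glutathione, rose by 0.57 (adjusted p = 0.046). Pla2g6, a phospholipase, rose by 0.76 (adjusted p = 0.032) and Zdhhc17, a palmitoyltransferase, by 0.36 (adjusted p = 0.048), each above the comparison median in 6 of 7 and each with probe sets that disagreed (r = -0.14 and -0.41). The unnamed transcripts A430105J06Rik and Gm15834 made up the rest of the 8.

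**Figure D5:**
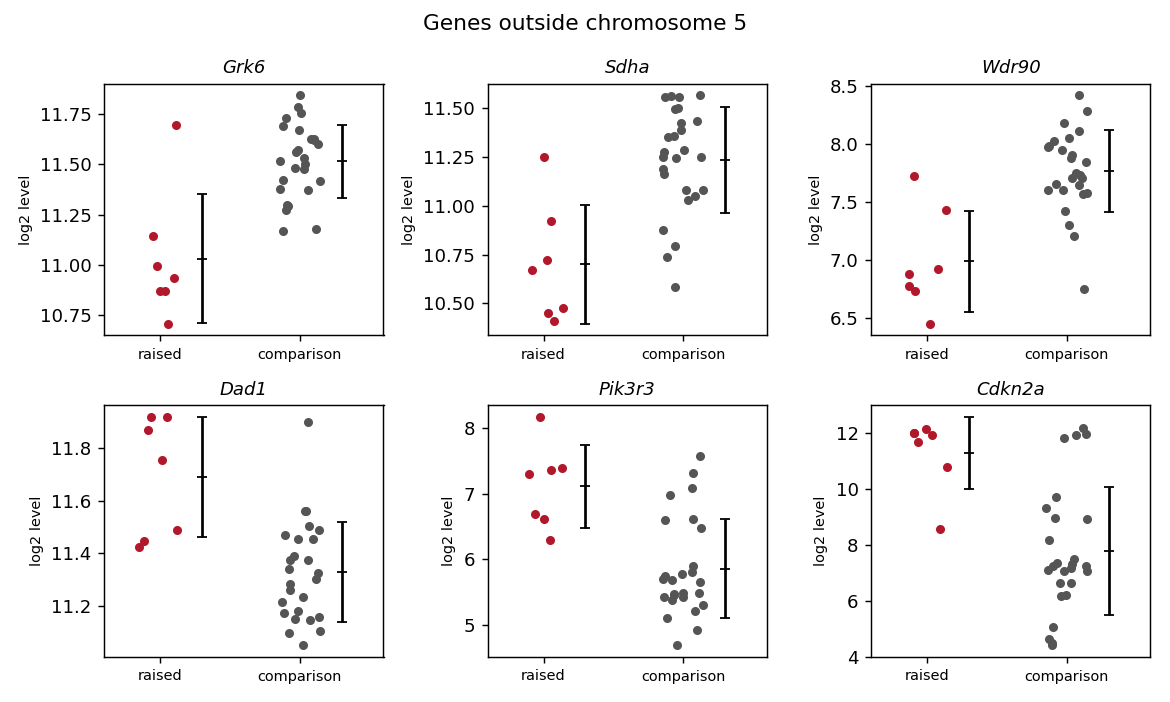
Levels (vertical axis, log2) of 6 genes outside chromosome 5 in the 7 raised and 26 comparison tumours, with bars for the mean ± SD. Grk6, Sdha and Wdr90 fell, Dad1 and Pik3r3 rose, and Cdkn2a, with 7 of 7 raised tumours above the comparison median, had an adjusted p of 0.051 and did not pass.

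Cdkn2a, the shared locus of Arf and Ink4a, tumour suppressors that act on p53 and Rb, had the largest difference among the genes followed in any case. It stood at 11.97 in tumour 12, 12.12 in tumour 14, 11.97 in tumour 17, 8.54 in tumour 21, 11.90 in tumour 24, 11.65 in tumour 25 and 10.76 in tumour 32. The comparison tumours ran from 4.41 over a median of 7.25 to 12.17, and 8 of them exceeded tumour 21. All 7 raised tumours lay above the comparison median and the difference was 3.50 ± 0.87, but the limma test did not pass (adjusted p = 0.051, 0.11 without tumour 12, range over alternatives 0.0059 to 0.66, called in 5 of 20).

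The transgene's product and its programme gave no such difference. Myc stood between 11.48 and 12.45 in the raised tumours against a comparison median of 12.03, a difference of 0.23 (adjusted p = 0.89). Of 23 Myc targets and ribosome biogenesis genes 17 had a positive difference, with a median of 0.10 beside -0.026 for all genes elsewhere, and Srm, of polyamine synthesis, and Nop58, of small nucleolar particles, differed by 0.39 and 0.29 (adjusted p = 0.69 for both). Xist, the RNA of the inactive X chromosome, was at 13.25 to 13.38 in tumours 12, 14, 17 and 32 and at 5.24 to 5.67 in the other raised tumours, so both patterns occurred (adjusted p = 0.92).

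None of the 284 members of the 22 lists outside chromosome 5 passed in limma (Pou2af1 not counted). At an unadjusted p under 0.05 there were 10 higher and 8 lower. Of all 16910 genes elsewhere 0.0473% were called higher and 0.124% lower, and 1428 had an unadjusted p under 0.05. The 0 calls thus lay near the share over all genes, and nothing about the lists is read from them. Under the alternative that weights arrays 7 passed, with T cell and macrophage scores as covariates 2, and without comparison tumour 2 there was 1. Among all genes elsewhere 405, 69 and 57 passed under these alternatives. The 17 S phase genes had a median difference of -0.16, with 3 positive, and Rrm2, of nucleotide reduction, and Cdc6, of origin licensing, differed by -0.33 and -0.32 (adjusted p = 0.61 and 0.81). The 19 G2/M genes had a median of -0.025, and Cdk1 and Ccna2 differed by 0.21 and 0.21.

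The 17 p53 targets had a median difference of -0.030, with Perp at 1.23 and Pmaip1, which encodes Noxa, at -0.78 (adjusted p = 0.48 and 0.64). Among 12 genes of the BCL2 family the median was -0.10, and Bik, a killer protein, was below the comparison median in all 7 raised tumours, at -0.69 (adjusted p = 0.30). The 29 proteasome genes had a median of 0.076, with Psmd4 at 0.29 and Psmc4 at -0.33. The 22 chaperones had a median of 0.051, and Hspa1b, an inducible heat shock protein, was above the comparison median in all 7 at 0.80 (adjusted p = 0.33), while Bag3, its partner, differed by -0.47.

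No B cell marker of the lists passed in limma, although some lists leaned in 1 direction. Of all genes elsewhere 41.9% had a positive difference. The 11 precursor B cell genes had a median difference of 0.15, and the surrogate light chain genes Igll1 and Vpreb1 had 11.40 and 11.51 in tumour 32, 9.48 and 8.57 in tumour 21, and 8.73 and 8.25 in tumour 24, but at most 7.21 and 5.50 in the other raised tumours (adjusted p = 0.38 and 0.58). The 2 probe sets of Igll1 were unrelated (r = -0.044). Of the 10 mature B cell genes 1 had a positive difference and the median was -0.22, and Cd22, a brake on B cell receptor signals, and Cr2, a complement receptor, differed by -0.47 and -0.81. Of the 9 pan B cell genes, which include the selection gene Pou2af1, 1 was positive too, with a median of -0.23 (-0.22 without Pou2af1), and Spib and Cd79b differed by -0.32 and -0.31 (adjusted p = 0.63 and 0.47). The 9 MHC class II genes had a median of 0.018, with H2-Ob at 0.27 and H2-Oa at -0.23.

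Markers of other cells varied between single tumours, and where a list leaned in 1 direction across the group no member passed in limma. The 12 T cell genes had a median difference of -0.075 and summed to mean levels of 5.91 to 8.51 in the raised and 5.50 to 9.41 in the comparison tumours, with Cd3d at -0.95 and Cd6 at 0.72. The 9 cytotoxic and NK cell genes all had a negative difference, with a median of -0.42, and 5 of the 7 raised tumours lay below the comparison median of their mean level, 5.83. Ccl5 and Klrd1 differed by -1.16 and -0.92. The 14 macrophage genes had a median of 0.16, with 11 positive, and Cd163 and Cd5l differed by 0.69 and 0.60. The 9 plasmacytoid dendritic cell genes had a median of 0.26, and their mean level was 11.45 in tumour 32 against at most 9.06 in any comparison tumour.

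In tumour 32 Siglech, the surface lectin of plasmacytoid dendritic cells, stood at 12.54 against 5.04 to 5.89 in the other raised tumours, and Bst2 at 12.61 and Ly6d at 13.46 were also its highest values. The 10 salivary genes were at a mean level of 13.96 in tumour 25 and at most 4.48 in the other raised tumours, and Bpifa2 and Amy1 stood at 14.84 and 14.18 there. The neutrophil genes S100a8 and S100a9 were highest in tumours 25 and 32, at 12.95 and 12.91 for S100a8 and 12.42 and 12.53 for S100a9, and had 4.88 and 5.12 in tumour 12. Adipoq, of fat cells, was highest in tumour 25 at 9.88.

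The remaining lists had medians of 0.14 for 14 interferon response genes, with Irf7 at 0.52 and Ifih1 at 0.34, -0.30 for 9 neutrophil genes, 0.062 for 10 fibroblast genes with Mgp at 0.62 and Thy1 at -0.50, and -0.14 for 9 endothelial genes with Egfl7 at -0.43 and Vwf at -0.36. The 8 adipocyte genes had a median of -0.15, with Cidec at -0.40, the 7 erythroid genes of -0.0079, with Car2 at 0.63 and Tfrc at 0.29, and the 10 salivary genes of -0.65. Their part in the results above was not tested. With T cell and macrophage scores as covariates 26 genes elsewhere were higher and 43 lower, and 28 of the 29 were among them.

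Leaving out tumour 12, the raised tumour with the most other shifted chromosomes, left the chromosome 5 description much as it was. Of the 434 well expressed genes 407 then had a positive difference, with a median of 0.35, and the difference in relative level between the groups was 0.34 against 0.32 with it. Of the named genes elsewhere Wdr90 (adjusted p = 0.033), Lpcat1 (0.043) and Grk6 (0.036) still passed in limma without it, with differences of -0.85, -0.59 and -0.48, as did Actg1 (0.046) and Arhgef1 (0.043). None of the 6 named genes that rose did, and their adjusted p then ran from 0.080 for Pla2g6 to 0.16 for Zdhhc17. These adjusted values again share their adjustment with chromosome 5, of which 33 genes were called higher in that fit.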

How the data were processed

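Each probe set has a log2 level, as deposited. Per the submitters' processing notes the authors used RMA through affy; the version is not given in the sources used here. RMA quantile normalizes the arrays, so all have nearly the same distribution, and a change in total RNA cannot be seen. Of 45101 probe sets 34958 named 1 gene in the platform annotation, 932 named several and 9211 were not listed; 34754 matched, by Entrez identifier, a table for GRCm38.p6 that was used for symbols, chromosomes and gene order. For 18033 genes the probe set of highest mean stood for the gene. The arrays correlated at r = 0.889 to 0.991, and their number limits the precision.

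Genes were compared with limma 3.58.1 (lmFit and eBayes with trend, R 4.3.3) between 7 and 26 tumours, with Benjamini-Hochberg adjustment over all genes, those of chromosome 5 included. Chromosome medians were compared with an exact 2-sided permutation test over tumours, adjusted over 19 chromosomes (Python 3.11.15). Both were tested on simulated data. Differences are raised minus comparison means, with standard errors from limma.

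Named genes on chromosome 5 are the 12 largest differences and the 4 brightest members of each role list, and elsewhere the up to 12 largest differences in each direction among genes that passed, 2 members of each list, and Pou2af1, Myc, Xist, Cdkn2a and Siglech; transcripts without a proper name were passed over, and others are said to be picked later or are members of role lists. The tumours, lists and rules were chosen with earlier results of these data known. Alternatives were the mean of probe sets, genes above the median level, chromosome means in place of medians, re-centred arrays, all other tumours, a Pou2af1 minimum of 10, each raised tumour left out, tumours 25 and 32 left out, robust eBayes, array weights, and Xist or T cell and macrophage scores as covariates. Those added after seeing the data were the relative level, comparison tumours 10 and 2 left out, and the chromosome 13 covariate. No column was left unused. Coordinates are not given because the deposited files name no build, and gene order was taken from the GRCm38.p6 table.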

Additional observations from a re-analysis of the deposited data

Results flagged for a closer look

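Among the 7 raised tumours, 116 values outside chromosome 5 were looked at for a tumour far from the others, and 13 had 1, by Dixon's test, which chance passes in about 1 in 20 groups. The cause of none was tested. Chromosome 5 and Pou2af1, which chose the tumours, were not tested in this way. Tumour 21 stood apart in the levels of chromosomes 11 (0.33, next 0.010) and 18 (0.34, next 0.0), and at the low end in Cdkn2a (8.54, next 10.76). Tumour 12 was lowest on chromosomes 2 (-0.37, next -0.11) and 7 (-0.35, next -0.12).

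Tumour 25 was lowest on chromosome 19 (-0.55, next -0.13) and highest in the salivary list (13.96, next 4.48), Bpifa2 (14.84, next 3.81) and Amy1 (14.18, next 4.86). Tumour 32 was highest in the plasmacytoid dendritic cell list (11.45, next 8.63), Siglech (12.54, next 5.89), Bst2 (12.61, next 10.33) and Klrd1 (8.63, next 6.02).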

How the results depend on the processing

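Genes elsewhere, 8 higher and 21 lower, with 69 chromosome 5 genes higher and 0 lower, gave other counts under most settings. Re-centred arrays gave 0, 0 and 1; genes above the median level 33 lower; tumours 25 and 32 left out 28 higher; array weights 151, 254 and 153, with 1 chromosome 5 gene lower; Xist as a covariate 4 and 13; T cell and macrophage scores 26, 43 and 146; comparison tumour 10 left out 17 and 34; comparison tumour 2 left out 16 and 41; the chromosome 13 covariate 1, 1 and 22. The cause was not tested. Leaving out 1 raised tumour gave 0 to 23 genes higher, 1 to 30 lower, and 2 to 78 on chromosome 5. The chromosome 5 median difference, 0.11, was 0.089 to 0.12 with 1 raised tumour left out, 0.28 over genes above the median level, and 0.32 (0.34 without tumour 12) on the relative scale. Other chromosomes that passed, 0, were 1 with all other tumours, 4 with means over genes, 5 on the relative scale with and without tumour 12, 1 without comparison tumour 10, 3 without comparison tumour 2, and 0 to 1 with a raised tumour left out. The difference of 3.51 in shifted chromosomes was 2.32 to 4.15 with a raised tumour left out. Of the values of named genes under these settings 1789 stayed on their side of the threshold, 181 lost their call and 31 gained one; no called gene reversed. No paired analysis was possible because the tumours carry unique numbers. For dim genes the signal lies close to background, which limits what their differences can show.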

Other observations

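The 6 tumours with Pou2af1 under 8, numbered 5, 6, 8, 19, 23 and 26, entered only the alternative against all other tumours. Their relative chromosome 5 level was -0.027 in tumour 5, -0.14 in tumour 6, -0.12 in tumour 8, -0.055 in tumour 19, -0.077 in tumour 23 and -0.065 in tumour 26. By the median over all chromosome 5 genes tumours 6 and 8 stood at 0.067 and 0.072, as high as raised tumours 32 and 17, while the shares of their well expressed chromosome 5 genes above the median over the 33 compared tumours were 35.5% and 35.9%.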
